A study of Mus musculus with 2 samples.

Results

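The 10 proximal microRNA (miRNA) genes of the imprinted Dlk1-Dio3 locus were Mir337, Mir540, Mir665, Mir431, Mir433, Mir127, Mir434, Mir136, Mir341 and Mir370. They were taken from a list of gene names that lie on the plus strand of mouse chromosome 12, from just before Rtl1 to the first part of Rian. The list sets no threshold on a measured value, but it leaves out 5 other miRNA genes of the same stretch, all of them low or at 0 here. Of these 10 genes, 9 had a row under their own identifier among the 1973 miRNA genes counted. No row matched the GENCODE M21 identifier of Mir136, which is treated separately. The data were miRNA-seq counts, which read the small RNA fraction, from embryonic lung of the mouse strain B6NCrl, aged 14.5 days (E14.5). The 2 libraries were biological replicates of 1 group, with no treatment, transgene or mutation named in the labels, so the data describe levels and their spread and hold no contrast between conditions. Per the labels each library came from the lung of 1 pup, yet the sex is given as mixed, so a library may hold RNA of several embryos, and the replicates were collected on different days. Replicate and collection day therefore cannot be told apart.

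The Dlk1-Dio3 domain is imprinted. Its protein-coding genes Dlk1, Rtl1 and Dio3 are expressed from the paternal chromosome, while the noncoding RNAs Meg3, the Rtl1 antisense transcript, Rian and Mirg are expressed from the maternal chromosome and carry miRNAs and small nucleolar RNAs. Rtl1 encodes a protein derived from a retrotransposon that is needed for fetal capillaries of the placenta. miRNAs processed from the antisense transcript match the Rtl1 mRNA perfectly and are known to direct its cleavage, so that the maternal transcript restrains the paternal one. miR-127 has been studied as a regulator of fetal lung development.

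In the mm10 annotation the hairpins fell into 3 stretches between 109585789, the start of Mir337, and 109618336, the end of Mir370, all on the plus strand of chromosome 12. Mir337 (109585789 to 109585885), Mir540 (109586080 to 109586146) and Mir665 (109586314 to 109586407) lay between the end of Meg3 (109571726) and the annotated Rtl1 gene (109589193 to 109600330, minus strand). Mir431 (109590447 to 109590537), Mir433 (109591715 to 109591838), Mir127 (109592846 to 109592915), Mir434 (109594506 to 109594599) and Mir136 (109595327 to 109595388) lay wholly opposite the coding exon of Rtl1. Mir341 (109611500 to 109611595) and Mir370 (109618258 to 109618336) lay in introns of Rian (109603940 to 109661716).

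The mature sequences opposite Rtl1 are shown because their perfect match to the Rtl1 mRNA sets them apart from the other members. They are given 5′ to 3′ from RefSeq (GRCm38.p6, plus strand), with the seed, bases 2 to 8, in capitals.
miR-431-5p: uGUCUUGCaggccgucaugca
miR-431-3p: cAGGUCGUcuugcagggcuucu
miR-433-5p: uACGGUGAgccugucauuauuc
miR-433-3p: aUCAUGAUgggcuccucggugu
miR-127-5p: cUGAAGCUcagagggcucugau
miR-127-3p: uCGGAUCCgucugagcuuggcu
miR-434-5p: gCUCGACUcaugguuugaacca
miR-434-3p: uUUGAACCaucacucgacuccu
miR-136-5p: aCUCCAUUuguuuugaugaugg
miR-136-3p: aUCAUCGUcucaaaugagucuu

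The reverse complement of each of these 10 sequences occurred in the Rtl1 mRNA of GENCODE M21 (6358 bases), from miR-136-3p at bases 164 to 185 to miR-431-5p at bases 5072 to 5092. Across the 1679 mature mouse miRNAs of the RefSeq table, 11 had such a match, and the remaining 1 was miR-432, whose hairpin lies in the same stretch. Arms encoded opposite an exon are complementary to its mRNA by position, so these matches follow from location. None of the 10 arms of Mir337, Mir540, Mir665, Mir341 and Mir370 matched. The site of miR-127-3p spans bases 2642 to 2663 of the mRNA and is shown as the example for the most abundant member, with the 7 bases that pair with the seed in capitals.
Rtl1 site of miR-127-3p: agccaagcucagacGGAUCCGa

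All 10 genes matched the RefSeq table, which gave 20 mature arms with 20 different seeds, so no pair of members shared a seed. Of these arms, 18 had a seed found in no other mature miRNA of the table, compared with 1211 of the 1679 (72.1%). The exceptions were miR-540-3p, which shared its seed with miR-6915-5p, and miR-370-5p, which shared its seed with miR-1193-3p from the distal cluster of the same locus. Mir1193 was also read here (7613 counts in replicate 1, 2928 in replicate 2). The counts are per hairpin, so the 5p and 3p arms were not separated.

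A pair of hairpins carried repeats. Mir341 is shown with the motif GGUC in capitals and Mir434 with the motif GAACCA in capitals, both picked by eye.
Mir341 hairpin: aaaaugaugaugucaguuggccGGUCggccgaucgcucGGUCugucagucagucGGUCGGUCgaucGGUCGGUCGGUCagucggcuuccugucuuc
Mir434 hairpin: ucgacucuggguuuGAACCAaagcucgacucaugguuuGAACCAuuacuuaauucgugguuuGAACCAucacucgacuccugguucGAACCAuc

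GGUC occurred 7 times in Mir341, and 24.9% of 1005 mouse hairpins held it at least once (37.2% when either strand was searched). GAACCA occurred 4 times in Mir434, against 1.59% of hairpins with at least 1 copy (4.48% on either strand). In each case no other hairpin of the table held as many copies, and no copy overlaps another. No member shared a stretch of 20 nt with another hairpin, which 132 of the 1005 hairpins did. Reads that map to several places were assigned to no gene in the deposited counts. Matches of the members elsewhere in the genome were not searched. The hairpins ranged from 62 to 124 bases, from 40.3% GC in Mir136 to 61.2% in Mir540 (median of all hairpins 51.7%), and in predicted folding energy from -28.2 kcal/mol for Mir136 to -49.4 kcal/mol for Mir337.

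Replicate 1 held 5128214 counts on the strand of a miRNA gene and replicate 2 held 2332032, and levels are given as counts per 1000000 of these (CPM). A single count (1) came to 0.195 CPM in the deeper library, replicate 1, and to 0.429 CPM in the other. A small RNA read spans the whole mature miRNA, so CPM were not divided by length, and how readily each sequence was captured was not measured. Intervals cover counting error only. Lung marker miRNAs were present, with endothelial Mir126a at 7.60% and 5.84% of counts in replicates 1 and 2, the smooth muscle pair Mir143 and Mir145a at 7.98% and 6.20%, and the 5 epithelial miR-200 family members, all detected, at 3.33% and 3.37%. Mir143 held most of the smooth muscle sum (78321 and 60488 CPM), and Mir145a stood at 1470 and 1535 CPM. Among markers of other tissues, the striated muscle list (9 of 10 genes with a row) summed to 370.3 CPM in replicate 1 and 57.5 CPM in replicate 2, with Mir133a-1 and Mir133a-2 at 0. The neuronal list (7 of 8 with a row) summed to 105.3 and 100.8 CPM with Mir9-2, Mir124a-1, Mir124a-2 and Mir124a-3 at 0. Mir137 held 86.6 and 78.5 CPM of it. Mir9-2 shares 20 nt with another hairpin, and reads that map to several places were assigned to no gene. Such sharing was not checked for the Mir124a and Mir133a genes, so a count of 0 in these rows does not show absence of the miRNA. The erythroid pair summed to 496.7 and 391.5 CPM and the hepatocyte marker Mir122 stood at 22.4 and 39.5 CPM. Of the striated muscle sum, Mir208a held 298.9 CPM in replicate 1 and 11.6 CPM in replicate 2. Mir208b (49.9 and 25.7 CPM) and Mir499 (12.5 and 4.72 CPM) were also lower in replicate 2. Mir206 (6.24 and 12.9 CPM) was higher in replicate 2, and Mir133b held only 3 counts in each library. In bulk tissue, fewer cells of a type and less RNA per cell cannot be told apart.

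Together the 9 measured members held 2.12% of counts in replicate 1 (95% exact Clopper-Pearson interval 2.11 to 2.13) and 1.96% in replicate 2 (1.95 to 1.98), a mean of 2.04% ± 0.108 (SD, n = 2). They made up 31.2% of all counts of the locus in replicate 1 (31.0 to 31.3) and 31.0% in replicate 2 (30.7 to 31.2), a share that differed by less than the counting intervals. The locus here is the 53 plus-strand miRNA genes of the region with a row, from Mir1906-1 to Mir3072. This total leaves out 70056 and 30143 plus-strand reads counted under 4 rows that GENCODE M21 places on the minus strand, opposite Mir299a, Mir380, Mir376a and Mir409, for which no row was matched. With these reads in the locus total the members' share was 25.9% in replicate 1, 25.7% in replicate 2 and 25.8% ± 0.152 on average (SD, n = 2). All 9 members reached 10 counts in each library, as did 34 of the 44 other locus genes. Most of the signal came from the stretch opposite Rtl1. Its 4 measured genes held 76.2% of the members' counts in replicate 1 and 74.1% in replicate 2, against 15.9% and 18.3% for the 3 genes before Rtl1 and 7.85% and 7.63% for the 2 genes in Rian. The summed counts of the 4 Rtl1-antisense genes exceeded those of the other 5 members. The ratio was 3.21-fold in replicate 1 and 2.86-fold in replicate 2 (log2 1.60 ± 0.12, SD, n = 2). Gene by gene this did not hold, as Mir337 exceeded Mir433 and Mir434 in both libraries. With multimapping and no-feature reads in the denominator the members' share was 1.18%, and without Mir127 it was 1.23%.

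**Figure D1:**
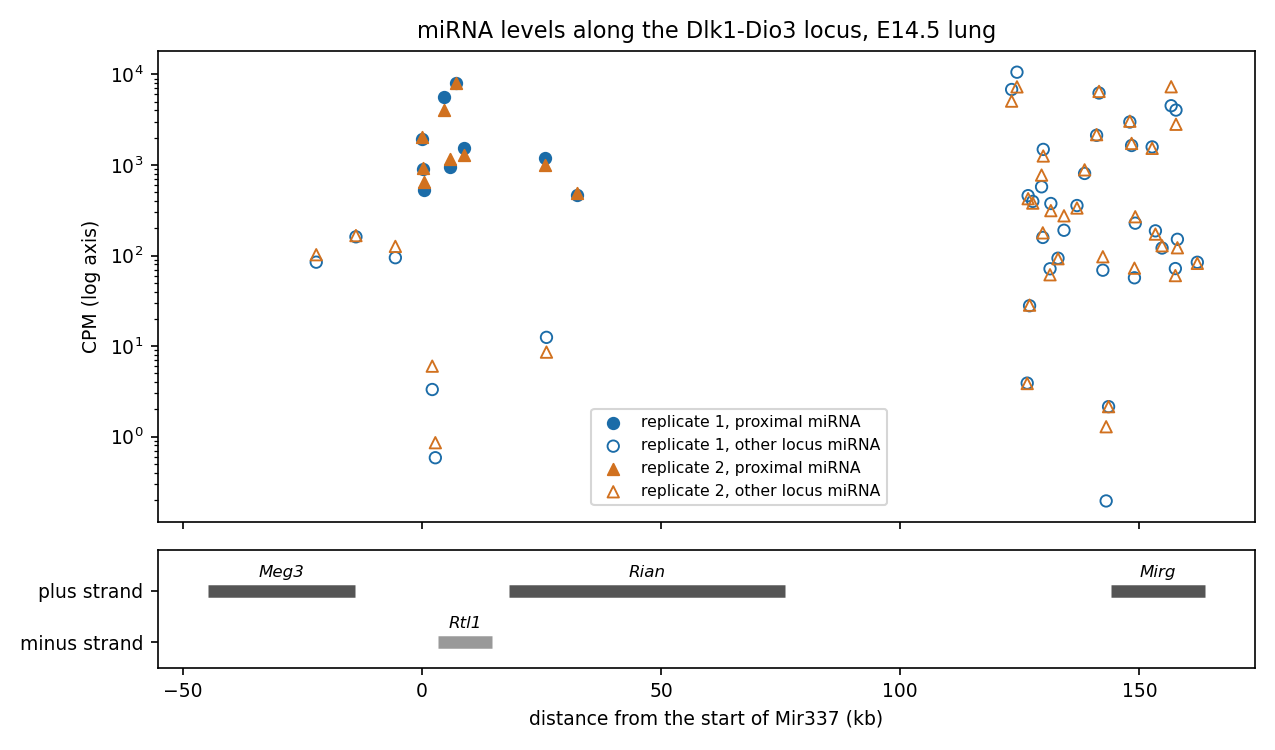
Upper panel: CPM on a log axis against distance in kb from the start of Mir337 for the plus-strand miRNA genes of the locus with a row, with circles for replicate 1, triangles for replicate 2 and filled symbols for the 9 measured proximal miRNAs; the 6 genes at 0 in both libraries are not drawn. Lower panel: the annotated extent of Meg3, Rtl1, Rian and Mirg by strand. The filled symbols over Rtl1 reach 8083 CPM, and the open symbols between Mir337 and Mir370 stay at or below 12.5 CPM.

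Opposite Rtl1, Mir127 was the most abundant gene. It stood at 8067 CPM in replicate 1 (7990 to 8145) and 8083 CPM in replicate 2 (7968 to 8198), a mean of 8075 ± 11.2 CPM (SD, n = 2), and ranked 29th and 27th of all genes. The libraries lay within each other's counting interval on this scale. Mir127 alone held 38.1% and 41.1% of the members' counts, and Mir431 a further 26.4% and 20.5%.

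Mir431, whose miRNA has been linked to muscle stem cells and muscle repair, stood at 5587 CPM in replicate 1 (5523 to 5652) and 4033 CPM in replicate 2 (3952 to 4115), a mean of 4810 ± 1099 CPM. It had the widest spread of the 9, and its counting intervals were far apart. Mir434, at 1548 CPM in replicate 1, was lower in replicate 2 at 1274 CPM (1411 ± 193). Mir433, a miRNA reported to act in bone-forming cells, differed in the other direction, with 938 CPM in replicate 1 against 1168 CPM in replicate 2 (1053 ± 163). Neighbours on this stretch thus differed in level by several fold within a library. Mir127 exceeded Mir433, which ends 1007 bases before it, by 8.60-fold in replicate 1 against 6.92-fold in replicate 2 (log2 2.95 ± 0.22, SD, n = 2). It exceeded Mir434, which starts 1590 bases after it, by 5.21-fold and 6.34-fold (2.52 ± 0.20). The ratio of Mir431 to Mir433 was the least stable of these, at 5.96-fold and 3.45-fold (2.18 ± 0.56).

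Mir136, whose miRNA also lies opposite the Rtl1 coding sequence, has no value of its own here. The row that covers its hairpin carries an identifier that GENCODE M21 gives to Mir3071, a miRNA gene of the minus strand at 109595318 to 109595397 that overlaps Mir136 along its whole length. That row held 1754 counts (342.0 CPM) on its gene strand and 1 on the opposite strand in replicate 1, and 678 counts (290.7 CPM) and 1 in replicate 2. The strand of this identifier in GENCODE M4, which was used for the counts, is not given in the sources used here, so reads of Mir136 and Mir3071 cannot be told apart. The 4 other rows of the locus that M21 places on the minus strand had nearly all their reads on the opposite strand, from 9346 to 29563 counts in replicate 1 against at most 11 on the gene strand. If the row were counted with the members, their share would be 2.07% and the Rtl1-antisense log2 ratio 1.63. The minus-strand arms are shown 5′ to 3′ with seeds in capitals, because miR-3071-3p lies opposite miR-136-5p and miR-3071-5p opposite miR-136-3p.
miR-3071-3p: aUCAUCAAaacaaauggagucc
miR-3071-5p: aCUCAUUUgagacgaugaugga

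The 3 genes between Meg3 and Rtl1 lie close together and formed a descending series in both libraries. Mir337 stood at 1954 CPM in replicate 1, close to the 2027 CPM of replicate 2 (1990 ± 51.5, SD, n = 2). Mir540 stood at 896 and 923 CPM (910 ± 19.0). Mir665 stood at 524 and 641 CPM (583 ± 82.8). Mir337 and Mir540, separated by 194 bases, kept almost the same ratio, 2.18-fold and 2.20-fold (log2 1.13 ± 0.01). Mir540 exceeded Mir665, which starts 167 bases further on, by 1.71-fold and 1.44-fold (0.65 ± 0.18).

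Mir337 is overlapped on the minus strand by Mir3544, for which no row was matched. The overlapping arms are shown because they pair with each other along most of their length.
miR-337-3p: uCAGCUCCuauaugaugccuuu
miR-3544-5p: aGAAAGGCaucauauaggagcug

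At Mir337, 8 reads in replicate 1 and 5 in replicate 2 lay on the opposite strand, against 10019 and 4726 on the strand of the gene. The other 8 measured members had 0 opposite-strand reads in both libraries, which allows up to 3 counts each, or 0.585 CPM in replicate 1 and 1.29 CPM in replicate 2.

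Within Rian, Mir341 stood at 1195 CPM in replicate 1 against 1011 CPM in replicate 2 (1103 ± 130, SD, n = 2). Mir370, whose miRNA is known for effects on lipid metabolism in liver, was the lowest member at 467 and 487 CPM (477 ± 14.5). Mir341 exceeded Mir370, 6662 bases downstream, by 2.56-fold and 2.08-fold (log2 1.20 ± 0.21). Across all members, Mir127 exceeded Mir370 by 17.3-fold in replicate 1, close to the 16.6-fold of replicate 2.

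In order of mean level the members ran Mir127, Mir431, Mir337, Mir434, Mir341, Mir433, Mir540, Mir665 and Mir370. The ranges over the libraries of Mir341 and Mir433 overlapped and their order differed between the libraries, so these neighbours did not differ beyond their spread. The other 7 neighbouring pairs had ranges that did not overlap. The narrowest gap, from the lower value of Mir433 to the higher value of Mir540, was 1.02-fold, and in replicate 1 the counting intervals of Mir433 and Mir540 overlapped. The gap was 1.07-fold between Mir434 and Mir341 and 1.08-fold between Mir665 and Mir370.

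**Figure D2:**
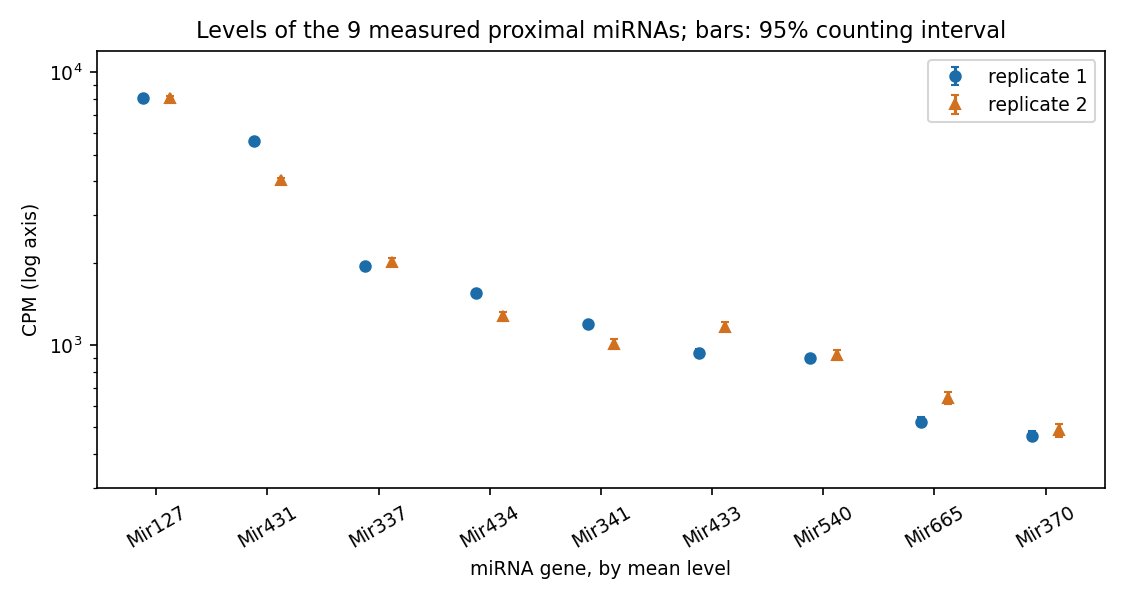
CPM on a log axis for the 9 measured proximal miRNAs in order of mean level, with circles for replicate 1, triangles for replicate 2 and bars for the 95% exact counting interval of each library. Mir127 lies at about the same height in both libraries (8067 and 8083 CPM), while Mir431 lies lower in replicate 2 (4033 against 5587 CPM).

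The nearest same-strand neighbours on the Meg3 side were lower than every measured member, and those on the distal side ranged from 0 to above Mir127. Before Mir337, Mir493 stood at 94.6 and 126 CPM in replicates 1 and 2, Mir673 at 161 and 166 CPM and Mir770, in Meg3, at 84.4 and 102 CPM, all below the lowest member in both libraries. After Mir370 the next gene, Mir882, had 0 counts in both libraries, and the following ones, Mir379 (6808 and 5069 CPM) and Mir411 (10573 and 7278 CPM), were among the highest of the locus. Mir411 had the highest mean of the locus genes outside the group (8925 ± 2330 CPM) and lay above Mir127 in replicate 1 and below it in replicate 2. A further 5 plus-strand genes within the members' span that were not among the 10 had few or 0 counts. In all they held 84 counts in replicate 1 and 36 in replicate 2. They were Mir1188 (12.5 and 8.58 CPM), Mir3070a (3.31 and 6.00 CPM), Mir3070b (0.585 and 0.858 CPM), and Mir432 and Gm23912 with 0 counts, and they were named after their values had been seen. Mir411, Mir3070a and Mir3070b share 20 nt with another hairpin, and reads that map to several places were assigned to no gene. The low counts of Mir3070a and Mir3070b therefore do not show absence of these miRNAs.

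Outside the locus, the 3 genes nearest to Mir127 in level over the 2 libraries were Mir351 on chromosome X (8082 and 8084 CPM), Mir98 on chromosome X (8126 and 7659 CPM) and Mir106b on chromosome 5 (8690 and 8140 CPM). The largest difference in log2(CPM + 1) from Mir127 in either library was 0.0027 for Mir351, 0.08 for Mir98 and 0.11 for Mir106b.

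The difference between the libraries was then set against that of all other genes. Genes that reached 10 counts summed over the libraries entered an exact two-sided binomial test, with library sizes scaled by TMM, a trimmed mean of ratios between libraries. The test compares the reads of these 2 libraries, not conditions. Of the 9 members 6 passed a Benjamini-Hochberg adjusted p of 0.05, against 41.8% of the 404 genes tested and 73.8% of the 187 genes of at least 100 CPM, the level class that all 9 members belong to. Of the 6, 2 were higher in replicate 2 (17.8% of all genes tested, 29.4% of those of at least 100 CPM) and 4 were lower (24.0% and 44.4%). The members' share of calls was therefore near that of genes of similar level. Of the 36 other locus genes tested, 19 passed (52.8%), of which 5 were higher (13.9%) and 14 lower (38.9%) in replicate 2. The median log2 ratio of replicate 2 to replicate 1 was -0.05 over the members and -0.03 over all genes tested. The median absolute log2 ratio was 0.20 over the members, 0.23 over all genes tested and 0.17 over genes of at least 100 CPM.

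Mir431 had the largest difference of the 9, its log2 ratio being -0.56 (adjusted p = 1.01e-246, exact binomial), which 8 of the 187 genes of at least 100 CPM exceeded in size. Mir434 followed with -0.37 (exact binomial adjusted p = 7.73e-33) and Mir341 with -0.33 (8.80e-21). Higher in replicate 2 were Mir433, with 0.23 (exact binomial adjusted p = 4.28e-10), and Mir665, with 0.20 (6.16e-05). Genes of the stretch opposite Rtl1 thus lay on both sides, with Mir431 and Mir434 lower and Mir433 higher in replicate 2, and this held with library totals and DESeq2 size factors. Mir127 passed with -0.09 (exact binomial adjusted p = 4.51e-11), but with library totals its log2 ratio was 0.0028 and it did not pass (adjusted p = 0.911). Mir337 (-0.04, exact binomial adjusted p = 0.279), Mir540 (-0.05, 0.368) and Mir370 (-0.03, 0.779) did not pass.

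These tests allow for counting error alone. With a common dispersion, estimated from these libraries (0.0327, a coefficient of variation of 18.1%), added to counting error, an exact beta-binomial test called 0 of the 9 members, none (0) of them even at an unadjusted p of 0.05, and 1 of the 404 genes (0.248%, with 15 at an unadjusted p of 0.05). The called gene, Mir208a, was also the 1 called among the genes of at least 100 CPM (0.535%), and 0 of the 36 other locus genes passed. The dispersion was estimated over genes from the same difference between libraries that the test judges, so few calls were largely built in. The test can show only which genes differ more than most. With library totals in place of TMM, 112 genes were higher and 65 lower in replicate 2, against 72 and 97 with TMM. The striated muscle list summed to 370.3 CPM in replicate 1 against 57.5 CPM in replicate 2, the erythroid pair to 496.7 against 391.5 CPM, and the neuronal list to 105.3 against 100.8 CPM. The striated muscle difference came mostly from Mir208a (298.9 against 11.6 CPM) and was not shared by the whole list. Mir208b (49.9 against 25.7 CPM) and Mir499 (12.5 against 4.72 CPM) were also lower in replicate 2. Of the 5 genes of the list tested, 3 were called lower and 1 higher in replicate 2 by the exact binomial test. Mir206 (6.24 against 12.9 CPM) was higher in replicate 2, and Mir133b held only 3 counts in each library. Endothelial Mir126a held 7.60% and 5.84% of counts. Their part in the differences of Mir431, Mir434 and Mir341 was not tested.

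**Figure D3:**
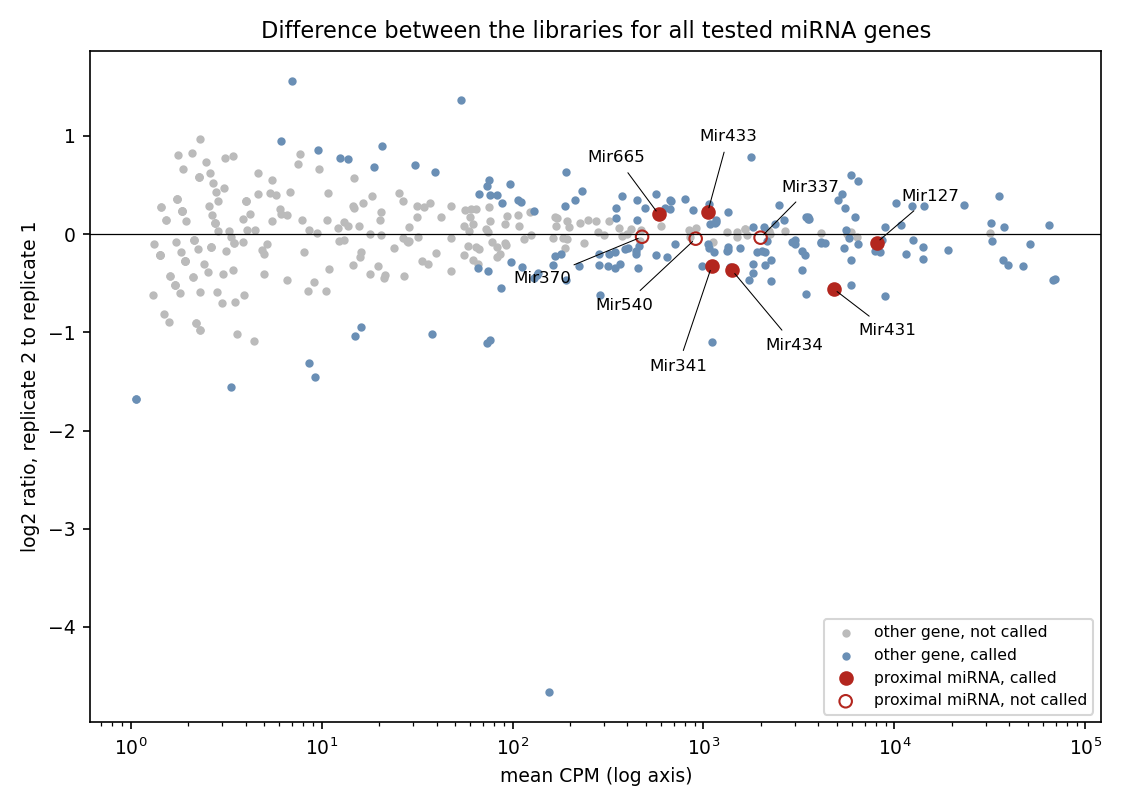
Log2 ratio between libraries (replicate 2 over replicate 1, TMM-scaled) against mean CPM on a log axis for the 404 genes tested, with large red symbols for the 9 measured proximal miRNAs, filled where they passed the exact binomial test, and small symbols for the other genes, blue where they passed and grey where they did not. The members lie between -0.56 (Mir431) and 0.23 (Mir433), within the spread of other genes of similar level.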

How the data were processed

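The authors deposited 1 table of counts per library. Its 3 value columns are read counts irrespective of strand, on the strand of the gene and on the other strand, and for every gene the first is the sum of the others. Per the deposited readme they derive from alignments to mm10 with GENCODE M4. Aligner and counter were not given in the sources used here. Multimapping reads (32.9% and 33.1% of reads) formed a summary entry and, with the other summary entries, stayed out of library sizes. Gene-strand counts were used, and CPM were taken over all 1973 genes. Of these, 1894 identifiers matched GENCODE M21 (mm10), which gave symbols, coordinates and host genes.

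The members, gene lists and tests were chosen with earlier results of these data known. Named genes were all members, the 3 nearest genes on each side, the 3 genes outside the locus nearest to Mir127 in level, the highest other locus gene and overlapping opposite-strand genes. Log2 ratios used a pseudocount of 1 CPM and TMM factors from edgeR over all genes with a count. Since 1 library against 1 leaves no residual degrees of freedom, edgeR's quasi-likelihood test could not be fitted, and exact binomial tests were used. DESeq2 size factors, as an alternative, were taken over genes with at least 10 counts. The binomial test was checked on simulated counts with counting error alone, without the spread between these libraries. The beta-binomial test was checked on simulated counts with added dispersion and no true change. Alternatives were other denominators, count columns, count minimums (1 and 50), pseudocounts (0.5 and 5 CPM), scalings and error models, leaving out each replicate, and, added after the data had been seen, the row over Mir136 and plus-strand reads under minus-strand rows of the locus. Software was R 4.3.3, edgeR 4.0.16, DESeq2 1.42.0, Python 3.11.15, scipy 1.17.1 and ViennaRNA 2.7.2 (RNAfold).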

Additional observations from a re-analysis of the deposited data

Results flagged for a closer look

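Mir337 was the measured member with reads on the strand opposite to the gene, a column that enters no main value. There were 8 such reads in replicate 1 and 5 in replicate 2, above the 3 counts that a count of 0 allows. Mir3544 is annotated on that strand.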

How the results depend on the processing

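The members' share of counts, 2.04%, was 2.19% without the most abundant gene in the denominator, 1.18% with multimapping and no-feature reads in it and 1.23% without Mir127, and ran from 1.96% to 2.12% when either replicate was left out. The Rtl1-antisense log2 ratio of summed counts was 1.23 without Mir127 and Mir337, the most abundant gene of each side. With geometric means per gene it was 1.63, an unlike measure, since the sums run over 4 and 5 genes. The members' share of locus counts, 31.1%, was 40.8% over locus genes that share no 20 nt with another hairpin, because Mir411 and Mir487b are among the 6 that do, and 25.8% with the plus-strand reads under minus-strand rows in the locus total. With the common dispersion, 1 gene and 0 members passed. With library totals the log2 ratio between libraries turned positive for Mir337 (0.0528), Mir540 (0.0425), Mir127 (0.00284) and Mir370 (0.0619), since TMM lowers all log2 ratios by 0.09. Of the calls of members, 5 passed with library totals, and 6 with each other scaling, count minimum or count column. No paired analysis was possible because there is 1 group. A total of 2 libraries limits every statement on spread.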
